A study of Mus musculus with 6 samples.

Results

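Lipid droplets are stores of neutral lipid wrapped in a coat of proteins. The acyltransferases Dgat1 and Dgat2 make the triglyceride, proteins of the perilipin family (Plin and Adfp here) cover the surface, and the Cide proteins (Cidea, Cideb and Cidec) promote the growth of droplets by passing lipid from one to another. Triglyceride is then taken apart in sequence by Pnpla2 (adipose triglyceride lipase), Lipe (hormone-sensitive lipase) and Mgll (monoglyceride lipase). Hepatic stellate cells are the pericytes of the liver sinusoid. They are known for droplets rich in retinyl ester, which they lose when they turn into matrix-producing myofibroblasts.

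These 10 genes were followed in hepatic stellate cells of mice with liver cirrhosis induced by CCl4 (carbon tetrachloride, a hepatotoxin), comparing wild type mice with SEPT4-KO mice, which lack the septin gene Sept4. Total RNA was hybridised to single-colour arrays, 3 per genotype, and all 6 arrays are of injured livers, so no uninjured control enters the comparison. The genes were taken by their platform symbols, in which Adfp is the older name of Plin2 and Plin that of Plin1. Each of the 10 had 1 probe, out of 23473 probes and 16446 symbols, and none of these 10 probes lay at the lowest value of any array. The labels used here give no age, strain or sex, do not say in which cells Sept4 is missing, and do not tie the arrays to separate mice or pools, although the labelling text speaks of RNA per mouse. The p-values therefore measure the spread among these arrays alone, and that spread may be technical.

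The deposited values are normalised signals on a log2 scale, with every array median at 5.02. Across probes, Pearson correlations ran from 0.981 to 0.986 within a genotype and from 0.967 to 0.971 between genotypes. The highest value of an array was 15.7 to 15.8 in wild type and 16.6 to 16.8 in the knockout, so array scale and genotype cannot be told apart. No probe of the annotation used here carries the name Sept4, so the deleted gene gave no check of the labels. All 16 listed stellate cell markers had a probe and none lay at an array's lowest value. In these bulk samples, fewer cells of a type and less RNA per cell cannot be told apart.

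The comparison asks whether genes of lipid droplets differ between stellate cells of wild type and SEPT4-KO mice after injury. Cidea and Plin were clearly higher in the knockout and Mgll slightly so, while the remaining genes did not pass the test as deposited. Differences are given as knockout minus wild type on the log2 scale, from limma, and a probe passed at an adjusted p (Benjamini-Hochberg, over all probes) under 0.05. Of the 10 genes 3 passed, all 3 as higher and 0 as lower, and 4 had an unadjusted p under 0.05. Among all probes 42.7% passed, 26.7% as higher and 16.0% as lower, so a count of 3 in 10 is near that background. At least a 2-fold rise was reached by 2 of the 10, against 3.74% of all probes. The 10 genes were chosen with earlier results of these data known, so this contrast is a description and not a test. The median difference of the 10 genes was 0.17, beside 0.12 for all probes.

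Signal strength and scaling both bear on these counts. When probes were ranked into 4 equal bins by mean signal, 13.3% passed in the dimmest bin, 29.0% in the second, 58.2% in the third and 70.4% in the brightest. Cideb lay in the dimmest bin, Cidec and Dgat2 in the second, Adfp in the brightest and the other 6 in the third, of which 3 passed. Of all calls 62.6% were higher in the knockout as deposited, but 52.5% after quantile normalisation, 51.5% after cyclic loess and 49.1% after centring the differences on their median. The median difference of all probes, 0.12 as deposited, was 0.02 and 0.01 after the former pair.

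**Figure D1:**
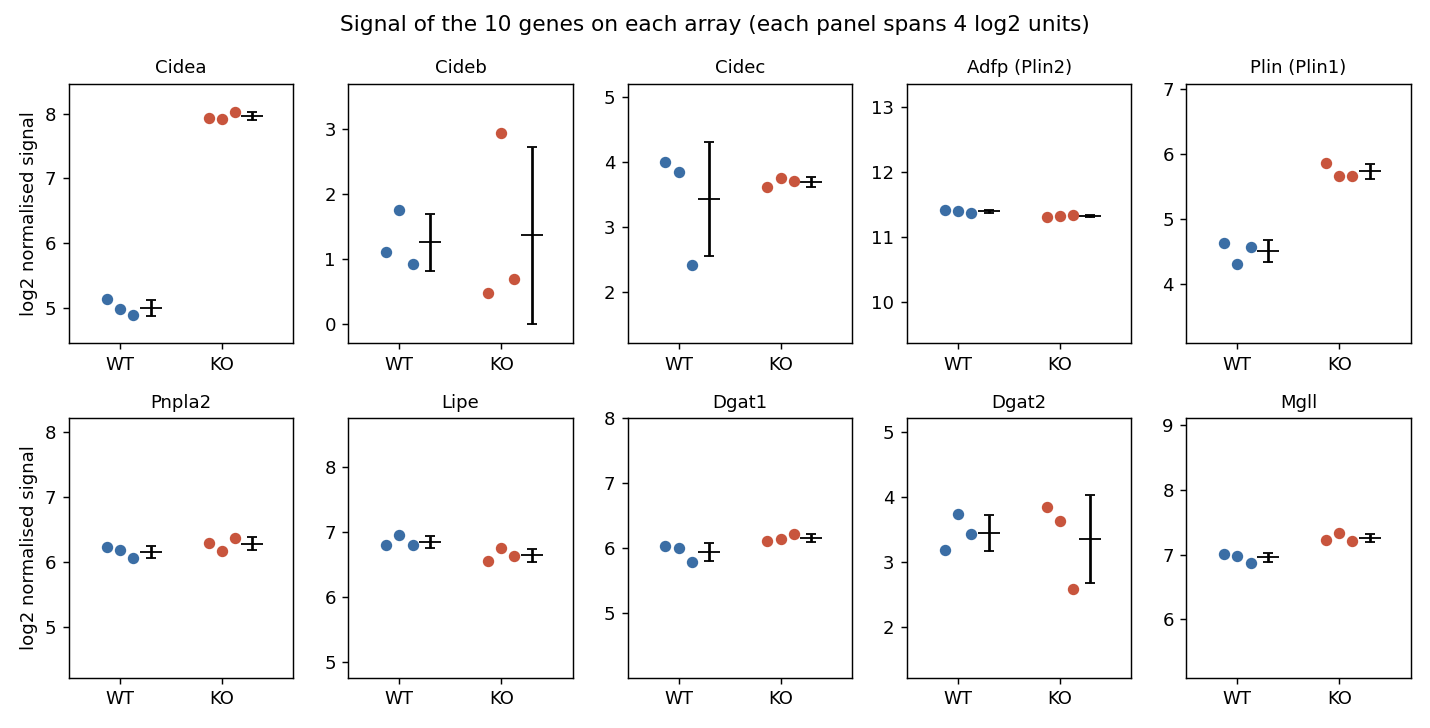
Log2 normalised signal (vertical axis) of the 10 genes on each wild type (WT, blue) and knockout (KO, red) array, with the mean and SD of each group beside the points; every panel spans 4 log2 units, placed to fit the gene. Cidea and Plin separate by far the most, with knockout means of 7.96 and 5.74 against 5.005 and 4.51, whereas the Adfp points nearly coincide at 11.3 to 11.4.

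Cidea, a droplet protein best known from brown fat, showed the greatest difference of the 10. Its wild type arrays read 5.13, 4.98 and 4.90, and its knockout arrays 7.93, 7.92 and 8.03. The groups lay far apart, and the gap was many times the spread within either. The means were 5.005 ± 0.12 and 7.96 ± 0.06 (SD, n = 3), a rise of 2.96 ± 0.08 (SE) or 7.76-fold, with an adjusted p of 0.000214 in limma. Its difference stayed between 2.84 and 3.02 under the 16 alternatives tried, and Cidea passed under each of them. By exact permutation, two-sided, Cidea had p = 0.1, and so did each of the 10 genes whose groups did not overlap; with 3 arrays per genotype no smaller value is possible.

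The other Cide genes showed no such rise. Cidec, the family member of white fat, read 4.01, 3.85 and 2.41 in wild type and 3.61, 3.75 and 3.71 in the knockout. One wild type array was low, and the groups overlapped. The difference of 0.27 had a 95% interval of -0.89 to 1.42 and an adjusted p of 0.671 in limma. Without wild type replicate 3, the low array, it turned to -0.24 with an adjusted p of 0.0985.

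Cideb, the member known from hepatocytes, where it acts in lipoprotein lipidation, was dim. Its wild type arrays read 1.11, 1.76 and 0.92, and its knockout arrays 0.48, 2.94 and 0.69. Knockout replicate 2 alone stood high, and the interval of the difference, -1.77 to 1.98, spans large changes in both directions. The difference itself was 0.11, and it turned to -0.68 without knockout replicate 2 and to -0.07 without wild type replicate 3.

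Differences between related genes on the same array are free of any constant shift of that array, though not of other rescaling, and were compared for 5 pairs. Cidea minus Cidec was 1.13, 1.14 and 2.49 on the wild type arrays and 4.32, 4.17 and 4.32 on the knockout arrays. The groups did not overlap, and the gap widened by 2.69 ± 0.45 (SE) in the knockout. Cidea minus Cideb widened by 2.85 ± 0.85 (SE), also without overlap. Both had an exact two-sided permutation p of 0.1, or 0.167 adjusted over the 5 pairs, which this design could not bring below the threshold.

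**Figure D2:**
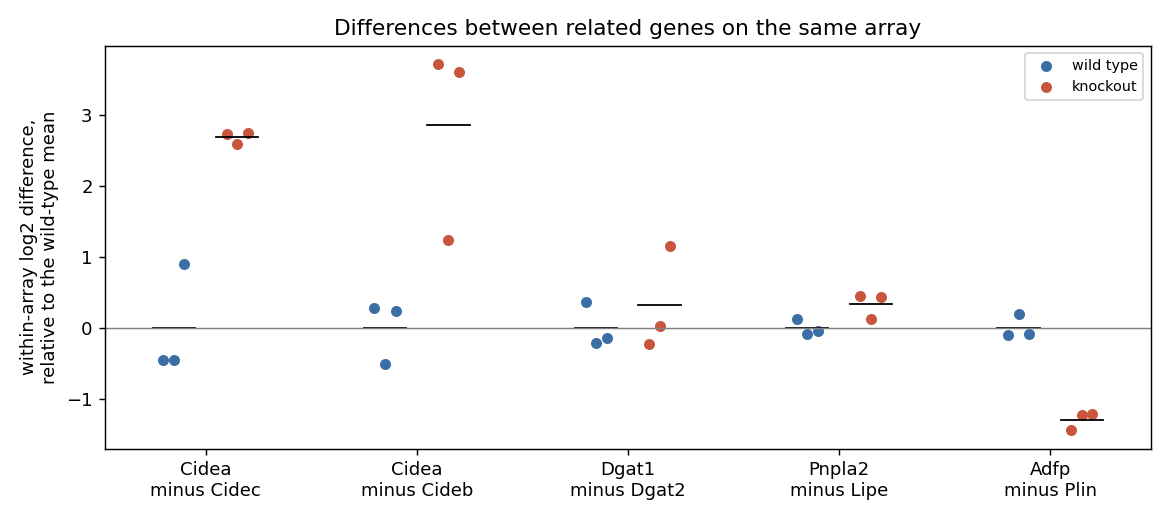
Difference between 2 related genes on the same array (vertical axis, log2), set relative to the mean of the wild type arrays, for 5 pairs; points are arrays and bars group means. The knockout arrays lie apart from the wild type arrays for both Cidea pairs and for Adfp minus Plin, and overlap them for Dgat1 minus Dgat2 and Pnpla2 minus Lipe.

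Of the perilipin coats, Plin was higher in the knockout and Adfp was not. Plin (perilipin 1), the coat that guards droplets of fat cells and releases lipase activators when phosphorylated, read 4.64, 4.31 and 4.58 in wild type and 5.87, 5.67 and 5.67 in the knockout. Every knockout array stood more than 1 log2 unit above every wild type array. Plin rose by 1.23 ± 0.11 (SE), or 2.34-fold (limma adjusted p = 0.00126), and it passed under all 16 alternatives at differences of 1.11 to 1.29.

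Adfp (perilipin 2), the coat found on droplets of most cell types, read 11.42, 11.40 and 11.37 in wild type and 11.31, 11.33 and 11.34 in the knockout. The knockout arrays all lay just below the wild type arrays, by a margin far smaller than for Plin. Knockout minus wild type was -0.07 ± 0.04 (SE), with a 95% interval of -0.18 to 0.04 and an adjusted p of 0.270 in limma. It lies below the shift of all probes, and after quantile normalisation it was -0.24 with an adjusted p of 0.00736, a call that cyclic loess (-0.275) and median centring (-0.18) also made. On the same array, Adfp minus Plin was 6.78 to 7.09 in wild type and 5.44 to 5.67 in the knockout. That gap narrowed, with a shift of -1.30 ± 0.13 (SE) and an exact two-sided permutation p of 0.1, or 0.167 adjusted over the 5 pairs.

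The upstream sequences of these coat genes are shown because the pair shares a protein family yet differed in response. RefSeq windows on GRCm38.p6 were matched for 7 of the 10 genes, and Cidea, Dgat1 and Dgat2 had none. The 250 bases before the annotated start were searched on both strands for the nuclear receptor half-site AGGTCA, the E-box CACGTG, the CCAAT box and the TATA element TATAAA, and matches are in capitals. The motifs do not overlap one another, and Plin1 lies at chr7:79732777-79733026 and Plin2 at chr4:86670060-86670309, both on the minus strand and printed 5′ to 3′.
Plin (Plin1): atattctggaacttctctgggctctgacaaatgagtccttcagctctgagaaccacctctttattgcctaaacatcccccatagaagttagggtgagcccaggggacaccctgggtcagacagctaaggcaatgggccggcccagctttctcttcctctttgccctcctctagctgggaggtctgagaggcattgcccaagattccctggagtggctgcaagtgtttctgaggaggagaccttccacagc
Adfp (Plin2): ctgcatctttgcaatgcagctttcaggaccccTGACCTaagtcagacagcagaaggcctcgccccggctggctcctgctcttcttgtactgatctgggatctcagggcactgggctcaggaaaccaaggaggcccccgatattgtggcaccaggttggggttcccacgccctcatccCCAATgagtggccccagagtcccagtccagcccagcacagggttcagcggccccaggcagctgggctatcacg
The Plin window held none of the 4 motifs. The Adfp window held AGGTCA, read from the opposite strand and beginning 218 bases before the start, and CCAAT at 73 bases before it. Among all 32851 windows of that length, 14.0% held AGGTCA, 33.8% CCAAT, 12.4% TATAAA and 6.02% CACGTG. The E-box was found before 1 start each of Lipe and Mgll, at 155 and 44 bases, and TATAAA before Cideb at 172 bases. A match describes letters only and is not evidence of binding.

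The lipases moved little. Mgll, which completes lipolysis by cleaving monoglyceride and also breaks down an endocannabinoid, read 7.01, 6.98 and 6.87 in wild type and 7.23, 7.33 and 7.21 in the knockout. The groups did not overlap. Mgll rose by 0.30 ± 0.06 (SE), or 1.23-fold (limma adjusted p = 0.0174). The call was lost under 4 of the 16 alternatives, among them leaving out wild type replicate 2 (adjusted p = 0.0520), leaving out knockout replicate 2 (0.0564) and median centring (a difference of 0.18, adjusted p = 0.0794).

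Lipe, the diglyceride lipase that also cleaves retinyl ester, read 6.80, 6.96 and 6.79 in wild type and 6.55, 6.75 and 6.63 in the knockout. All knockout arrays lay below all wild type arrays, the highest of them by a narrow margin. Knockout minus wild type was -0.21 ± 0.08 (SE), and limma's adjusted p was 0.0953. After quantile normalisation it was -0.28 with an adjusted p of 0.0360, and it also passed after cyclic loess (-0.28) and median centring (-0.32). Adfp and Lipe were the 2 members called lower under each of quantile normalisation, where 20.2% of all probes were lower, and cyclic loess, where 20.7% were.

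Pnpla2, the enzyme of the initial lipolytic step, read 6.23, 6.18 and 6.06 in wild type and 6.29, 6.17 and 6.37 in the knockout. The groups overlapped, and the difference of 0.12 had a 95% interval of -0.08 to 0.33 and an adjusted p of 0.269 in limma. Pnpla2 did not pass under any of the 16 alternatives. Pnpla2 minus Lipe shifted by 0.33 ± 0.12 (SE) on the same arrays, with overlapping groups and an exact two-sided permutation p of 0.2 (0.25 adjusted over the 5 pairs).

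The acyltransferases of the last step of triglyceride synthesis did not pass. Dgat1, which also esterifies retinol, read 6.03, 6.005 and 5.78 in wild type and 6.10, 6.15 and 6.22 in the knockout. The groups did not overlap, yet the difference of 0.22 ± 0.09 (SE) had an adjusted p of 0.103 in limma. It passed under 2 of the 16 alternatives, a trended and robust prior and leaving out the dimmest 50% of probes.

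Dgat2, an unrelated enzyme of the same reaction, read 3.18, 3.74 and 3.43 in wild type and 3.85, 3.63 and 2.59 in the knockout. Knockout replicate 3 was the lowest of all 6 arrays while the other knockout arrays lay within or above the wild type range. The difference was -0.10 with a 95% interval of -1.06 to 0.86, and it turned to 0.29 without knockout replicate 3 and to 0.05 without wild type replicate 2. Dgat1 minus Dgat2 shifted by 0.32 ± 0.46 (SE), with overlapping groups and an exact two-sided permutation p of 0.7.

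Counted together, the groups of 4 genes did not overlap with the knockout higher (Cidea, Plin, Mgll and Dgat1) and those of 2 with the knockout lower (Adfp and Lipe). Among all probes 34.5% lay wholly higher and 21.7% wholly lower, so these counts too are near the background. By their estimates alone, Cidea and Plin stood apart from the other 8, whose differences ran from -0.21 to 0.30. The 95% intervals of Cideb (-1.77 to 1.98) and Cidec (-0.89 to 1.42) include the 1.23 of Plin.

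**Figure D3:**
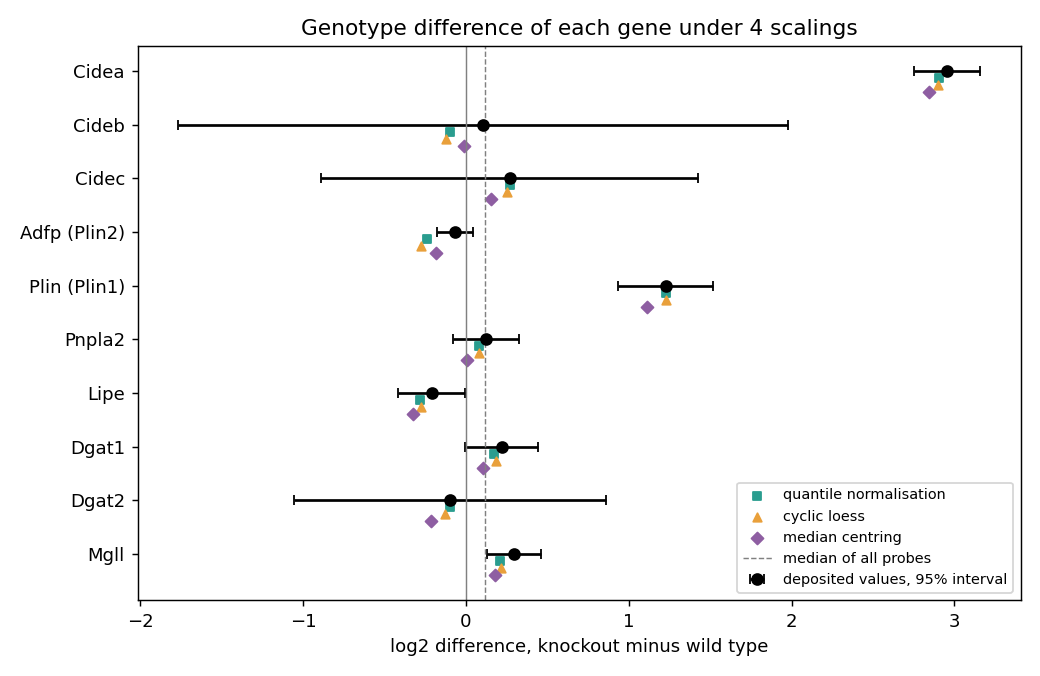
Log2 difference, knockout minus wild type (horizontal axis), of the 10 genes, as deposited with 95% intervals (black) and after quantile normalisation, cyclic loess and median centring; the dashed line is the median of all probes, 0.12. Cidea and Plin stand clear of the line under all 4 scalings, Adfp and Lipe lie to its left, and the intervals of Cideb, Cidec and Dgat2 are wide.

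Only probes with 1 symbol were searched for patterns like those of Cidea and Plin. Clone names (ending in Rik, or starting with a number or LOC) were passed over. Closest to Cidea by the Euclidean distance of the 6 values, centred on their mean, were Osbpl5 (distance 0.301), Akp2 (0.303) and Cuedc1 (0.505). These had rises of 2.84, 3.13 and 3.28. Osbpl5 encodes an oxysterol-binding protein relative and Akp2 the tissue-nonspecific alkaline phosphatase. Nearest to Plin were Hist1h2bp (0.139), Cyfip2 (0.202) and Gamt (0.206), a histone, a partner of the actin-regulating WAVE complex and an enzyme of creatine synthesis, with rises of 1.23, 1.14 and 1.36. The distance covers 6 arrays, 3 of each genotype, and is a description without a test.

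Other genes of neutral lipid storage were then read from 5 lists based on textbook roles. Of 82 genes listed, 66 had a probe, and by the brightest probe of each gene 22 rose and 13 fell. This is 33.3% and 19.7%, beside 29.4% and 14.9% of all 16446 genes. The balance moved with scaling, to 18 higher and 17 lower after quantile normalisation and after cyclic loess, and to 15 higher and 18 lower after median centring. Their median difference was 0.12, and that of all genes 0.14. Without wild type replicate 2 the number that passed fell from 35 to 23.

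Cofactors of lipolysis and other lipases were more often higher than lower, with 8 of 15 higher and 1 lower and a median of 0.60. Among all genes 29.4% were higher and 14.9% lower, and the counts of each list below are to be read beside these shares. G0s2, an inhibitor of Pnpla2, rose from 8.91 ± 0.03 to 10.44 ± 0.09 (SD, n = 3), or 2.88-fold. Abhd5, the activator of Pnpla2, rose by 0.79 ± 0.06 (SE), and was picked out once its value was known. Hilpda, another inhibitor of Pnpla2 but listed with the coat genes, fell by 0.28. Lipoprotein lipase (Lpl), which takes fatty acids from circulating lipoproteins, rose by 0.997 and Faah, the fatty acid amide hydrolase, by 1.23. Endothelial lipase (Lipg) fell by 1.52. The median of this list was 0.38 after quantile normalisation and 0.33 after cyclic loess, with 8 higher and 1 lower under each. After median centring 6 rose and 1 fell, and the median was 0.49.

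Genes listed under triglyceride and phosphatidate synthesis, apart from Dgat1 and Dgat2, gave 7 higher and 2 lower of 17, with a median of 0.26. The acyltransferase Gpat2 rose from 4.43 ± 0.30 to 6.30 ± 0.01 (SD, n = 3), Gpat4 by 0.71 and the phosphatidate phosphatase Lpin1 by 0.62. Mboat7, an acyltransferase of phosphatidylinositol, fell by 0.54 and the monoacylglycerol acyltransferase Mogat2 by 0.21. The balance depended on scaling, with 6 higher and 5 lower after quantile normalisation.

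The other coat and assembly genes were split, with 3 of 11 higher and 3 lower and a median of -0.05. Plin5, the perilipin of oxidative tissues, rose by 0.58 ± 0.07 (SE). Plin3, a coat of nascent droplets, rose by 0.28 and Fitm2, which partitions triglyceride into droplets, by 0.40, but after quantile normalisation these stood at adjusted p = 0.0649 and adjusted p = 0.0511 in limma. Hsd17b13, a droplet enzyme of hepatocytes, was dim and fell by 1.32, the caveolar protein gene Cav1 fell by 0.88, and the third to fall was Hilpda, given above. After quantile normalisation 1 of the 11 rose and 3 fell. Of sterol and retinyl ester genes, 2 of 7 rose and 2 fell, with a median of 0.20. Lrat, which makes the retinyl ester of stellate cells, rose by 2.41 and the neutral cholesteryl ester hydrolase Nceh1 by 0.28. Stra6, a transporter of retinol, fell by 1.05 and Soat1, which esterifies cholesterol, by 0.34. After median centring 1 rose and 3 fell.

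Transcription factors of lipid storage were more often lower, with 5 of 16 lower and 2 higher and a median of -0.18. Ppara fell by 1.49 with a 95% interval of -2.41 to -0.56, and its knockout arrays read 1.81, 3.06 and 2.90. The oxysterol receptor gene Nr1h2 fell by 0.69 and Pparg, the regulator of fat cell genes that include Plin and Cidea, by 0.56 ± 0.11 (SE). Ppargc1a, a coactivator of mitochondrial genes, was dim and rose by 1.48 on its brighter probe, while the dimmer one gave 0.69 (adjusted p = 0.0693 in limma). Cebpb rose by 0.24 as deposited, but quantile normalisation left 0.03 (adjusted p = 0.607) and cyclic loess turned it to -0.0049.

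**Figure D4:**
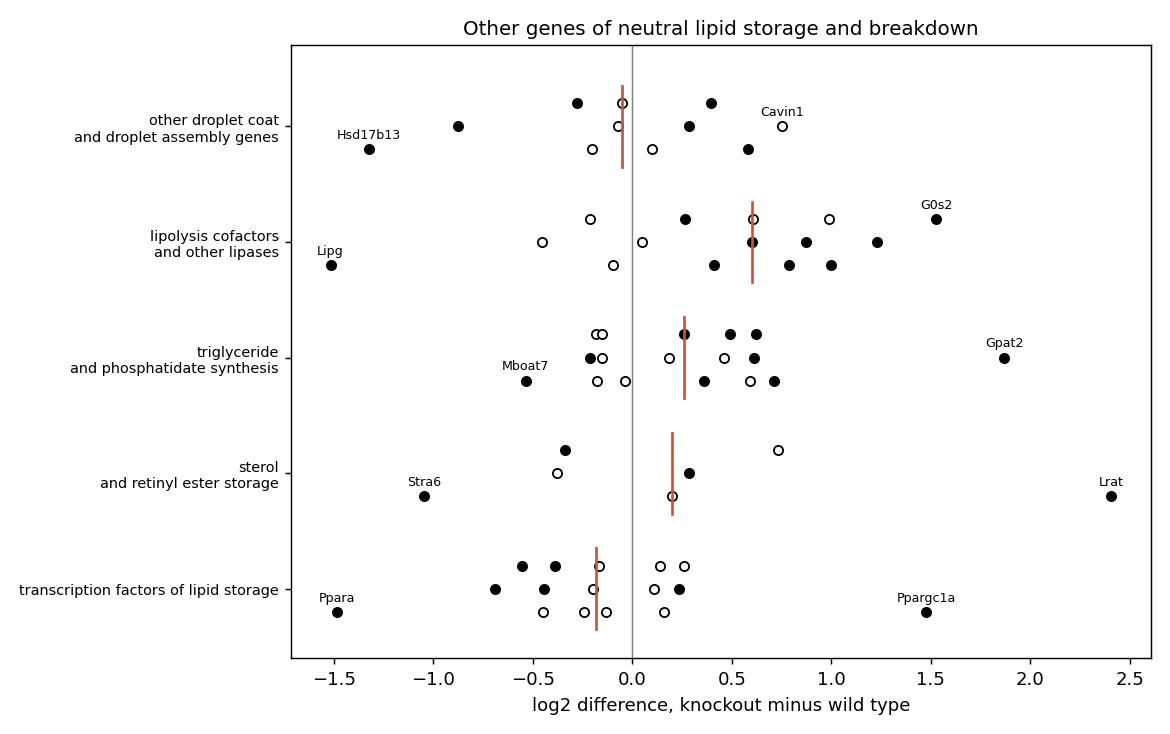
Log2 difference, knockout minus wild type (horizontal axis), of 66 other genes in 5 lists; filled points passed an adjusted p of 0.05, open points did not, and the red bar is the list median. The lipolysis list has the highest median, 0.60, and the transcription factor list the lowest, -0.18.

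Some markers of fat cells were also higher in the knockout. The adipocyte list also held the members Plin, which rose, and Lipe and Cidec, which did not pass as deposited. Lipe passed as lower after quantile normalisation, as given above. Leaving out these members, 4 of 8 adipocyte markers rose and 0 fell, beside 29.4% and 14.9% of all genes. The summed linear signal of these 8 was 1038 to 1062 on the wild type arrays and 2010 to 2062 on the knockout arrays. Of that difference Fabp4 made up 47.8% and Cfd 47.2%, and 4 of the 8 markers did not pass. The complement factor gene Cfd (adipsin) rose by 2.11, Pck1 by 0.71, the fatty acid carrier Fabp4 by 0.69 and Adipoq by 0.46. Retn, Slc2a4, Lep and Aqp7, with differences of 0.41, 0.39, 0.26 and 0.0085, did not pass. Of 8 brown adipocyte markers other than Cidea, 2 rose and 0 fell, near the 29.4% of all genes that were higher. Their summed signals were 199 to 202 and 343 to 350, and Cox8b made up 82.5% of the difference. Cox8b, a cytochrome oxidase subunit, rose by 2.02, and Ppargc1a is described above. Ucp1, the protein that defines brown fat, also picked out once its value was known, read 3.31 in wild type and 3.28 in the knockout (adjusted p = 0.915 in limma). Of these markers, Lep in 1 knockout array and Elovl3 in 1 wild type array lay at the lowest value. The part of fat cells in the rises of Cidea and Plin was not tested.

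Markers of other cells that could share the preparation were counted in the same way. Of 11 hepatocyte markers 3 rose and 1 fell, with summed signals of 1621 to 1663 and 1763 to 1813. Albumin (Alb) rose by 0.88, Tdo2 by 0.66 and Ahsg by 0.49, and transthyretin (Ttr) fell by 0.42. Of 12 macrophage markers 1 rose (Clec4f, by 0.52) and 5 fell, led by C1qg, Emr1 and Cd14, which fell by 1.32, 1.27 and 1.01. Their summed signals were 3293 to 3506 and 2901 to 2980. Of 10 endothelial markers 2 rose, Vwf, which was at the bottom of the scale in 1 wild type array, and Eng, and 0 fell, with summed signals of 870.2 to 898.6 and 994.8 to 1008. For the stellate cell markers 11 of 16 rose and 3 fell, with Lrat, Col3a1 and Cygb the highest rises and Col1a2, Acta2 and Des lower. Their summed signals, in which the brightest genes weigh most, were 8.751e+04 to 9.793e+04 and 1.195e+05 to 1.262e+05. Among all genes 29.4% were higher and 14.9% lower, and the share of probes that passed rose with signal. The part of these cell types in the results for the 10 genes was not tested.

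**Figure D5:**
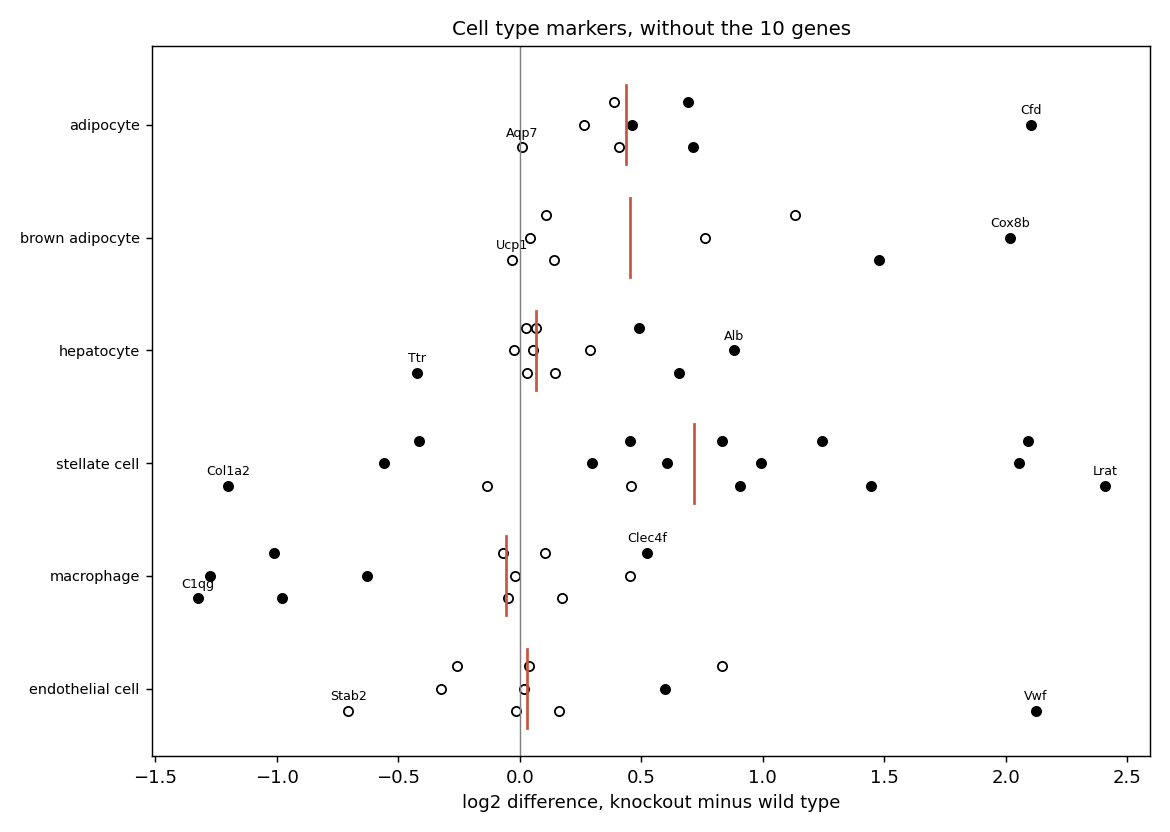
Log2 difference, knockout minus wild type (horizontal axis), of cell type markers other than the 10 genes; filled points passed an adjusted p of 0.05, open points did not, and the red bar is the list median. No adipocyte or brown adipocyte marker shown passed as lower, and Cfd and Cox8b are the highest shown of their lists at 2.11 and 2.02.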

How the data were processed

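Total RNA of hepatic stellate cells from 3 wild type and 3 knockout samples was profiled on single-colour Cy5 arrays. Per the labels, the authors quantile normalised the deposited values, which are read here as log2 from their range, although the highest value differs between the genotypes. The sources used here give neither scanner software nor background correction. The labelling text speaks of tumour RNA and a kit for microRNA, unlike the other labels. Probes were named from the platform annotation (16631 with 1 symbol, 6842 with none).

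Differences were fitted over all 23473 probes with lmFit and eBayes in limma 3.58.1 (R 4.3.3), two-sided, without a further normalisation, with 4 residual and 1.11 prior degrees of freedom. The fit was tested on simulated data, where log2 changes of 0.5, 1 and 2 passed in 28.4%, 54% and 72.8% of cases. A change of -2 passed in 65.6%. Few probes were changed there, whereas 42.7% passed in these data, so recovery here may differ. Single genes and pairs were also tested by exact permutation (scipy 1.17.1). List genes used the probe with the highest mean, and up to 3 genes per direction that passed are named, by size, or as stated. Median centring subtracts the median difference of all probes (0.12). The linear offset is the 10th percentile of the linear values. The members and lists were chosen with earlier results of these data known. Figures used matplotlib 3.10.9.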

Additional observations from a re-analysis of the deposited data

How the results depend on the processing

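Of the 10 genes 5 passed after quantile normalisation, after cyclic loess and with a trended and robust prior, against 3 as deposited. Among all 23473 probes 9986, 10003 and 11792 passed under these settings, against 10025 as deposited. Without the dimmest 50% of probes, 5 of the 7 genes still tested passed, beside 8993 of all 11736 probes left. The added calls were Adfp and Lipe lower after quantile normalisation and cyclic loess. With the trended and robust prior and with the stricter dim filter they were Lipe lower and Dgat1 higher. The median of the 10 genes was 0.0562 after median centring, and ran from 0.0047 to 0.28 when each array was left out. The direction of Cideb turned after quantile normalisation (-0.10), cyclic loess (-0.12) and median centring (-0.0105), and ran from -0.68 to 0.55 when arrays were left out. Leaving out arrays gave -0.24 to 0.56 for Cidec and -0.34 to 0.29 for Dgat2. The cause of these changes was not tested. The count for the 66 other lipid genes, 35, ran from 23 to 30 when arrays were left out. Same-numbered arrays of the genotypes did not deviate together (r of 0.0077, -0.0013 and -0.0020), and not every array correlated best with its own number. No pairing by number was seen, but correlations this small cannot exclude one. With the replicate block, 7724 probes passed in place of 10025, 23 of the 66 genes and 2 of the 10, Mgll standing at an adjusted p of 0.0506 in limma. Cideb fell out of both dim filters, and Cidec and Dgat2 out of the stricter one. Mgll also lost its call without wild type replicate 2, without knockout replicate 2 and after median centring, where Adfp and Lipe passed as lower. The other results of the 10 genes kept their direction and their side of the threshold wherever they were computed, and the 5 pairs kept their direction after quantile normalisation and with the linear offset, where Adfp minus Plin shifted by -1.46 and -1.22. The balance of higher and lower calls in the lists moved with scaling, as given above, and median centring turned the hepatocyte median from 0.07 to -0.05 and the endothelial median from 0.03 to -0.09. With 3 arrays per genotype, precision is limited.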
